A study of Oryza nivara and Oryza rufipogon with 42 samples.

Results

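The genes described here are 148 loci of wild rice whose transcripts were counted almost entirely in panicles at the heading stage. They were taken from 20134 genes measured by digital gene expression (DGE), in which 1 short tag near the 3' end stands for a transcript. A gene was kept when its mean was under 2 CPM (tag counts scaled to a common library total, as deposited) in all 4 groups of flag leaves and flowering panicles, which held for 191 genes. Of these the 150 with the highest heading panicle mean, taking the smaller of the means of both species, were selected. Of 16 loci that the selection leaves out by name, 2 were among the 150, which gave 148. These means chose the genes, so the difference between organs is a description and carries no test.

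The libraries came from Oryza nivara, an annual wild rice, and Oryza rufipogon, a perennial one, grown in pots in a greenhouse from accessions of South and Southeast Asia. For each species and organ (the heading-stage flag leaf, the heading panicle and the flowering panicle) there were 6 plants, of which 3 were collected in 2009 and 3 in 2010. The 36 DGE libraries were joined by 6 paired-end RNA-seq libraries, 1 for each species and organ. Plants are named by their title numbers, and p-values measure the spread between these plants.

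The flowers of a panicle contain anthers. In young anthers the tapetum, a nurse layer around the developing pollen, secretes nutrients and the building material of the pollen wall, and then breaks down. Many anther genes are switched on for a short window of this development and are silent in leaves and in open flowers. The labels give the stage as heading only, so the age of the anthers in these panicles is not known. Names and functions are not paired with the loci in the deposited files, so the 148 genes are given by locus number, with no role attached. No sequence of these loci was used here.

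Heading libraries held 1725036 to 2712054 summed counts in 2009 and 2702519 to 4164766 in 2010. Marker lists were set down from general knowledge of rice loci and not checked against an annotation. Those of photosynthesis and floral organs separated flag leaves from heading panicles, while others given below, such as that of meiosis, overlapped among organs. The summed level of 5 photosynthesis loci was 14442 to 71430 CPM in flag leaves and 243 to 4048 in heading panicles. That of 5 floral organ loci was 16.6 to 53.2 CPM in flag leaves and 550 to 2207 in heading panicles. These levels and the later ones, unless given as deposited, are CPM scaled by the trimmed mean of M values (TMM) over all 36 libraries.

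The 12 heading panicles did not carry these genes alike, and several libraries stood apart. Summed over the 148 genes, the level in O. nivara was 7233 CPM in plant 26, 7149 in plant 33 and 6947 in plant 39, all of 2009. Those of 2010 held 5170 in plant 80, 4819 in plant 133 and 317 in plant 52. In O. rufipogon the sums of 2009 were 7081 in plant 43, 1541 in plant 47 and 306 in plant 49. Those of 2010 were 28080 in plant 199, 1308 in plant 95 and 498 in plant 230. Plants 49, 52 and 230 were thus low and plant 199 high in the same labelled organ, and both species contained low plants. In bulk tissue, fewer cells of a type and less RNA per cell cannot be told apart.

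**Figure D1:**
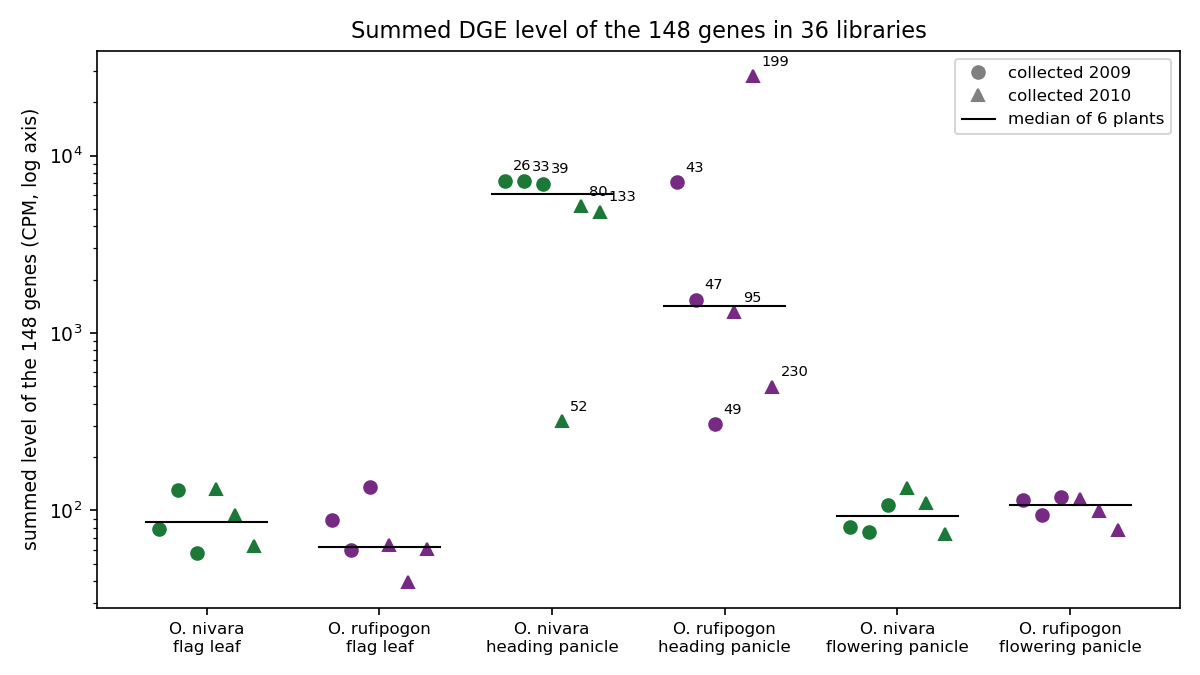
Summed DGE level of the 148 genes (CPM, log axis) in each of 36 libraries by species and organ, with plant numbers on the heading panicles and a line at the median of 6 plants. Heading panicles run from 306 to 28080 CPM, while the 24 other libraries sit between 39.3 and 135 CPM.

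Outside the heading panicle the same sum stayed between 39.3 and 135 CPM in all 24 libraries. Even the lowest heading panicle, with 306 CPM, was above every one of them. Heading libraries held 249741 of the genes' tags and the other 24 libraries held 6007, so that 97.7% of the tags came from heading panicles. The number of the 148 genes without a tag in a group of 6 was 9 in O. nivara flag leaves, 14 in O. rufipogon flag leaves, and 9 and 6 in their flowering panicles. All genes had tags in both heading groups. LOC_Os03g14140 was alone in having no tag in any of the 24 other libraries. The highest single value outside heading panicles had a median of 2.90 CPM over the genes and was over 5 CPM for 21 of them. The highest was LOC_Os01g73770, at 15.3 CPM in the flag leaf of O. nivara plant 33.

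The description of these genes as on only in heading panicles therefore held for the group means and not for each plant. In plant 52, 103 of the 148 genes were under 2 CPM. The same was true of 101 genes in plant 49 and 92 in plant 230, of 58 in plant 47 and 52 in plant 95, and of 13 to 35 in the remaining 7 plants. In each of the 24 other libraries, 127 to 144 genes were under 2 CPM. The ceiling of the selection was set on means of deposited CPM, so 2 CPM is not the same limit here. TMM factors were 1.09 to 1.44 in heading panicles and 0.63 to 0.92 in flag leaves. Relative to deposited CPM they lower heading values and raise flag leaf values. At 2 CPM or over in all 12 heading panicles were 7 genes, and 58 genes were under 2 CPM in plants 49, 52 and 230 together.

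LOC_Os01g45730 was the single gene whose lowest heading panicle was above every library of the other organs. The O. nivara levels were 10.7, 6.37 and 17.9 CPM for plants 26, 33 and 39 of 2009, then 8.86, 37.1 and 56.3 for plants 52, 80 and 133 of 2010. The O. rufipogon levels were 22.6, 19.3 and 4.26 CPM for plants 43, 47 and 49 of 2009, then 34.3, 38.2 and 4.74 for plants 95, 199 and 230 of 2010. Its highest value elsewhere was 2.51 CPM. Plants 49 and 230 were again lowest, but plant 52 was above plant 33.

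The gene that ranked first, LOC_Os08g43290, spanned the widest range. In O. nivara it was at 1178 CPM in plant 26, 234 in plant 33, 731 in plant 39, 403 in plant 80, 413 in plant 133 and 0.932 in plant 52. In O. rufipogon it reached 10798 CPM in plant 199, 1766 in plant 43 and 220 in plant 47, against 10.3 in plant 95, 6.97 in plant 230 and 0.355 in plant 49. The mean of O. nivara was 493 ± 412 CPM (SD, n = 6) and that of O. rufipogon 2134 ± 4300, so that the SD exceeded the mean in the latter. In plant 199 this locus made up 38.5% of the sum over the 148 genes, and the 5 leading genes made up 65.0%. Its highest value in any other organ was 2.56 CPM.

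LOC_Os07g46210, the second by rank, showed the same low plants. Its O. nivara levels were 388, 236 and 496 CPM for plants 26, 33 and 39 and 528 and 386 for plants 80 and 133, with 0 counts in plant 52. In O. rufipogon it was at 2814 CPM in plant 199 and 485 in plant 43, and then at 24.7, 9.48, 1.78 and 0.558 in plants 47, 95, 49 and 230. The next 8 genes by rank were LOC_Os09g35700, LOC_Os04g44600, LOC_Os05g44120, LOC_Os01g02190, LOC_Os01g56530, LOC_Os12g13930, LOC_Os04g48400 and LOC_Os03g24300. Each was under 2 CPM in plants 49 and 52. All but LOC_Os03g24300 were highest in plant 199.

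**Figure D2:**
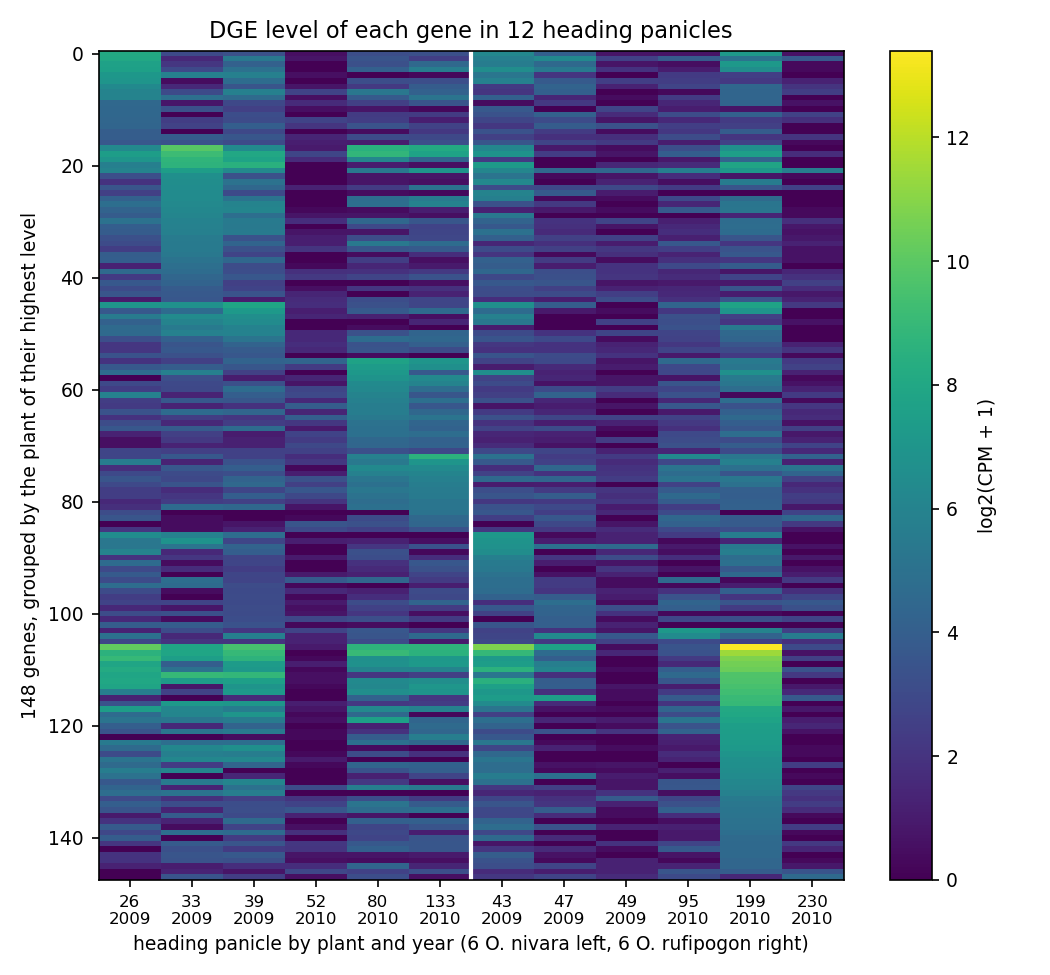
DGE level of each of the 148 genes, as log2(CPM + 1), in 12 heading panicles labelled by plant and year, with genes grouped by the plant in which they were highest. The columns of plants 49, 52 and 230 are dark for most genes, and the blocks of genes highest in plants 33 and 199 are the largest, with 28 and 41 genes.

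The genes fell into blocks by the plant that held their highest level. Plant 199 held the highest level of 41 genes, plant 33 of 28, plants 26 and 80 of 17 each, plant 133 of 14, plant 43 of 12 and plant 39 of 10. Plants 47, 95 and 230 held 5, 3 and 1, and plants 49 and 52 held 0. These blocks were formed from the values and were not tested. The 41 genes highest in plant 199 had a median of 105 CPM there, against 27.7 in plant 39, 23.3 in plant 43, 13.9 in plant 33 and 0.355 in plant 49. The 28 genes highest in plant 33 had a median of 60.2 CPM there, against 21.6 in plant 39, 15.3 in plant 43, 11.4 in plant 199 and 0.558 in plant 230. The direction of these differences is set by the grouping.

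LOC_Os05g10210 belonged to the plant 33 block. It was at 982 CPM in plant 33, 364 in plant 80 and 278 in plant 133, and at 74.2 and 85.2 in plants 26 and 39. In O. rufipogon its highest levels were 105 CPM in plant 199 and 73.6 in plant 43. LOC_Os03g24300, also highest in plant 33 at 401 CPM, was at 368 in plant 39, 53.7 in plant 26, 155 in plant 43 and 222 in plant 199. Unlike LOC_Os05g10210 it was almost absent from plants 80 and 133, at 1.01 and 0.467 CPM. LOC_Os04g44600 shared that gap, with 3.37 and 4.91 CPM in plants 80 and 133 against 232 to 496 in plants 26, 33 and 39.

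A few genes went against the common pattern. LOC_Os02g44320 was over 5 CPM in 11 of 12 heading panicles, including 21.0 CPM in plant 49 and 52.7 in plant 230, and had 0 counts in plant 52. LOC_Os11g47350 was highest in O. rufipogon plants 95 and 47, at 88.8 and 81.6 CPM, and reached 48.0 in plant 230, against 1.87 in plant 33 and 18.2 in plant 199. LOC_Os01g61370 had the smallest spread, from 1.42 CPM in plant 49 to 8.76 in plant 80. Its SD on the log2(CPM + 1) scale over the 12 plants was 0.67. LOC_Os08g43290 had the largest, 4.12.

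The median SD over the 148 genes was 1.83 on the same log2 scale, against 0.84 over all 20134 genes. The sets are not matched for level, and genes with a low median and high peaks were favoured by the choice. A gene of the set was over 5 CPM in a median of 6 of 12 heading panicles, and none was in all 12. Each gene of the whole table reached 5 deposited CPM in at least 4 of the 36 libraries, so a gene on in fewer plants could not appear. On the same log2 scale, each gene's level was correlated with the mean of the other 147 over the 12 plants. Pearson's r had a median of 0.63, ran from -0.18 to 0.99, was above 0.7 for 59 genes and was below 0 for 7. The libraries share their depth and scaling across genes, and these values describe the 12 plants only.

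Summed levels of 2 marker lists differed among the same heading panicles. The first is the summed level of 15 tapetum and pollen wall loci, the listed loci that the selection leaves out by name and that are in the table, of which 2 met the thresholds that chose the 148. It was 822 CPM in plant 52 and 1582 in plant 49, the lowest, and 29642 in plant 199, the highest. It was 11539 CPM in plant 47, 12882 in plant 95 and 6670 in plant 230, against 2229 to 7322 CPM in plants 26, 33, 39, 43, 80 and 133. Plants 47 and 95 were thus above these 6 plants in the list and below them in the 148 genes, while plant 230 was inside their range in the list and below it in the 148 genes. None of the 15 loci was at 0 counts in either heading group. In flowering panicles this list was at 149 to 588 CPM in O. nivara and at 314 to 6289 in O. rufipogon. In flag leaves it was at 25.4 to 69.6 CPM. The list thus overlapped between heading and flowering panicles, with the highest flowering value in O. rufipogon plant 95. The sum of the 148 genes did not overlap, but low flowering panicle means were a condition of their selection.

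Across the 12 plants Pearson's r between a gene and the log2 of that list's sum had a median of 0.30 over the 148 genes, and Spearman's rho a median of 0.20. Without the 2 plants farthest from the list's median, the median r was -0.05, so the median rested on those plants. The r was over 0.7 for 6 genes with all 12 plants and for 5 without those 2. The highest over 12 plants was 0.84, for LOC_Os08g31870, which had r = 0.75 without those 2 plants. This gene was at 21.0 CPM in plant 26, 17.1 in plant 199 and 16.8 in plant 47 and at 0 counts in plants 33 and 52.

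The second measure is the summed level of 3 late pollen loci. It was highest in plants 52 and 49, at 54.5 and 51.5 CPM, followed by 41.0 in plant 43, 22.5 in plant 47 and 17.6 in plant 230. The other 7 heading panicles were between 1.40 and 9.28 CPM. Plants 49, 52, 230 and 47, low in the 148 genes, were therefore among the 5 highest in this list, whereas plant 95 was low in both and plant 43 high in both. The same list was at 4.73 to 280 CPM in flowering panicles and at 2.34 to 22.7 in flag leaves. Of 14 meiosis loci 8 were in the table, with sums of 32.7 to 131 CPM in heading panicles, highest in plant 33. That list overlapped among organs, at 27.1 to 80.1 CPM in flowering panicles and 14.0 to 55.9 in flag leaves. The photosynthesis list was at 1773 CPM in plant 52 and 1281 in plant 49, inside the range of the other heading panicles, and the floral organ list at 1387 and 1328. The part of these lists in the level of the 148 genes was not tested.

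**Figure D3:**
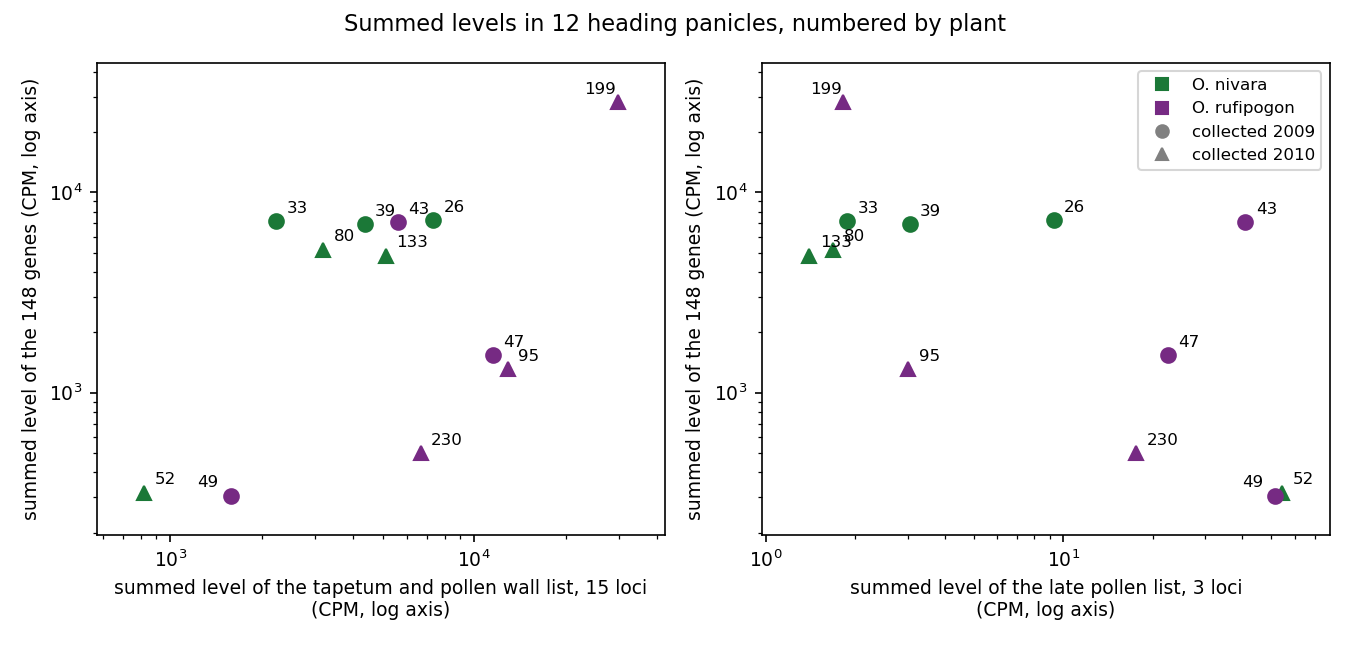
Summed level of the 148 genes against that of the tapetum and pollen wall list (left) and of the late pollen list (right) in 12 heading panicles, all as CPM on log axes and numbered by plant. Plants 47, 95 and 230 have 6670 CPM or more of the tapetum and pollen wall list and at most 1541 CPM of the 148 genes, and plants 49 and 52 have over 50 CPM of the late pollen list and at most 317 CPM of the 148 genes.

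The RNA-seq libraries give a second assay of the organs. They came from O. nivara plant 39 for the heading panicle and plant 40 for the other organs, and from O. rufipogon plant 47 for all 3. There was 1 library for each species and organ, so no test was possible, and the values are RPKM, reads scaled by gene model length and library size. Of the 148 genes 147 were listed. Their summed RPKM was 9467 in the O. nivara and 1863 in the O. rufipogon heading panicle, against 104 and 66.2 in flowering panicles and 17.0 and 17.4 in flag leaves. Both heading panicles were above all 4 other libraries for 116 genes, which is 78.9%, against 21.5% of the 19770 DGE genes listed in RNA-seq. DGE libraries of the same plants and organs entered the means that chose the genes. The RNA-seq values therefore measure those plants again and do not come from an independent set of plants.

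Flag leaves were silent for most of these genes in RNA-seq too. No gene was over 2 RPKM there, 93 were listed at 0 in O. nivara and 84 in O. rufipogon, and the highest was 1.80 RPKM. Flowering panicles had 16 genes over 2 RPKM for O. nivara and 4 for O. rufipogon. Shares over all genes are not given for these counts, and low DGE means in both organs were a condition of the selection. The share over 2 RPKM in any library outside heading panicles was 11.6%, or 17 genes, against 88.1% of all DGE genes listed in RNA-seq. It depends on the threshold, at 23.1% of the set for 1 RPKM and 2.04% for 5 RPKM. LOC_Os01g12440 was the highest, with 12.4 and 8.63 RPKM in flowering panicles of O. nivara and O. rufipogon against 30.1 and 35.7 in heading panicles. LOC_Os09g28120 was higher in the O. nivara flowering panicle, at 4.22 RPKM, than in heading panicles, at 1.54 and 1.53.

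Ranked by the smaller of both heading values, the highest of the set in RNA-seq was again LOC_Os08g43290, at 1948 RPKM in the O. nivara and 560 in the O. rufipogon heading panicle, and at most 1.70 elsewhere. LOC_Os09g35700 followed at 905 and 107 RPKM, then LOC_Os02g44320 at 445 and 89.4. The next, LOC_Os07g46210, was at 250 and 72.0 RPKM and was listed at 0 in all 4 other libraries. LOC_Os03g59290 was an exception of another kind. It was at 55.1 and 16.2 CPM in DGE of the same 2 plants and listed at 0 RPKM in both heading panicles, so its DGE tag had no counterpart in RNA-seq.

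For 109 genes the DGE level was higher in plant 39 than in plant 47, and for 108 the RNA-seq level was higher, with the same direction in both assays for 128 of 147. The log2 ratio of plant 39 over plant 47 had a median of 1.53 in DGE, on CPM + 1, and of 0.99 in RNA-seq, on RPKM + 1. Across genes the ratios correlated with r = 0.92 and rho = 0.93, and genes are not independent replicates. The same values over all genes are not given, and both DGE libraries entered the means that chose the genes. LOC_Os04g44600 was at 459 against 2.56 CPM in DGE and at 493 against 2.15 RPKM in RNA-seq. For this gene both assays gave a lower level in plant 47 than in plant 39. The other direction, lower in plant 39, was found for 38 genes in DGE and 38 in RNA-seq. RNA-seq has no other O. rufipogon heading panicle to set plant 47 against.

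**Figure D4:**
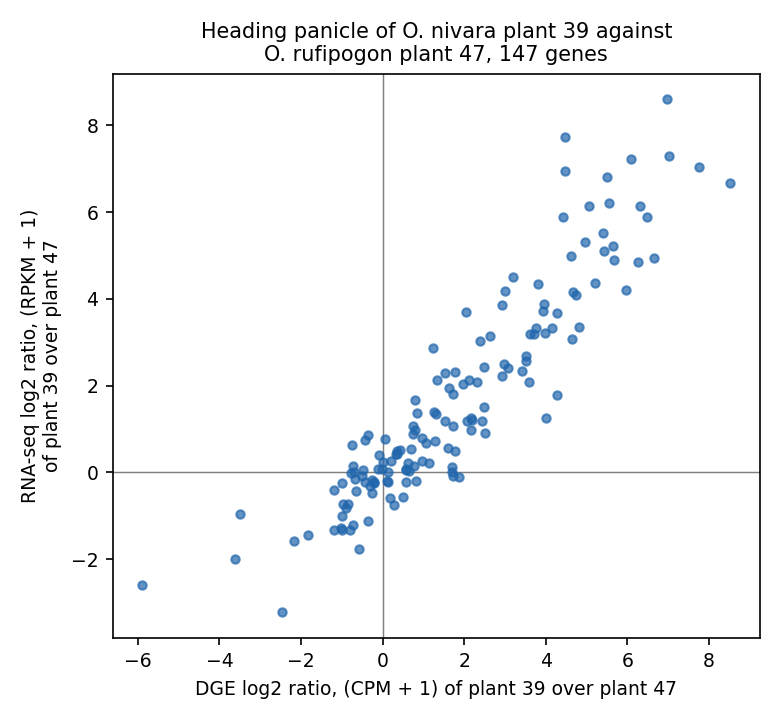
Log2 ratio of the heading panicle of O. nivara plant 39 over that of O. rufipogon plant 47 for 147 genes, from DGE (x axis, on CPM + 1) and RNA-seq (y axis, on RPKM + 1). Each point is a gene, and 128 points have the same sign in both assays.

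The comparison of the species was made within heading panicles, subtracting O. rufipogon from O. nivara, in a model that also held the year of collection. No gene of the set passed the test: edgeR's quasi-likelihood test called 0 of 148 at an adjusted p under 0.05, with 13 at an unadjusted p under 0.05, while DESeq2 called 2. The background was 0.161% of 18634 genes tested, with 0.0322% higher and 0.129% lower in O. nivara, and all 148 had passed the filter on low counts. A gene near absence in either species could not enter the set, since both heading means had to be high, which limits this comparison. No gene had species that did not overlap, against 0.671% of all genes tested, of which 0.338% were higher and 0.333% lower in O. nivara.

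Lowest in p among the genes higher in O. nivara was LOC_Os11g36940. Its O. nivara mean was 51.2 ± 66.5 CPM (SD, n = 6) against 8.97 ± 14.2 for O. rufipogon, with 164 and 101 CPM in plants 80 and 133 and 37.5 in plant 199. The log2 difference was 2.73 (SE 0.74, adjusted p = 0.198 by edgeR). Among those lower in O. nivara it was LOC_Os05g30580, at 4.10 ± 6.85 against 151 ± 205 CPM, with 537, 179 and 166 CPM in O. rufipogon plants 199, 47 and 43 and 0.355 in plant 49. Its log2 difference was -5.54 (SE 1.51, adjusted p = 0.203 by edgeR). Neither was called, and the groups overlapped for both.

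Over the 148 genes the log2 species difference had a median of 0.38, against 0.01 over all genes tested, and 86 genes were higher in O. nivara. The direction rested on single plants: the median was -0.10 without O. rufipogon plant 49 and 1.04 without plant 199. Within the plants of 2009 it was 1.10, with 2 of 129 genes called, or 1.55%, against 0.179% of all genes tested there. Within those of 2010 it was -0.04, with 0 of 116 called, against 0.0616% of all genes tested. The plants of O. nivara collected in 2009 differed little from each other in the summed level, from 6947 to 7233 CPM. Sums of the 3 plants ran from 317 to 5170 CPM in O. nivara of 2010, from 306 to 7081 in O. rufipogon of 2009 and from 498 to 28080 in O. rufipogon of 2010. A test of whether the species difference itself differed between years called 0 of 148 genes (lowest adjusted p = 0.279 by edgeR). The background of these adjusted calls was 0.00522% of 19139 genes. At an unadjusted p under 0.05 by edgeR were 25 genes, or 16.9%, against 8.34% of all genes tested. The genes share the same libraries and are not independent. DESeq2 called 4, with no share over all genes given.

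Collection year was compared as 2010 minus 2009 with species as the second term. Each heading group holds 3 plants of each year, so the group means that chose the genes did not use this difference. The years differ in the plants taken and in library depth, and these cannot be told apart. The test called 26 of 148 genes, of which 11 rose and 15 fell in 2010. That is 17.6%, below the background of 25% of 18634 genes. Higher and lower calls made up 12.6% and 12.4% of all genes tested. The plants of both years did not overlap for 5 genes, or 3.38%, against 11.7% of all genes tested (7.49% higher and 4.23% lower in 2010).

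LOC_Os04g47620 fell most clearly. Its 2009 levels were 14.7, 14.6 and 9.47 CPM for O. nivara plants 26, 33 and 39 and 10.8, 15.4 and 1.42 for O. rufipogon plants 43, 47 and 49. In 2010 it had 2 counts over 6 libraries, against 186 in 2009, and at most 0.337 CPM. The 95% counting interval of the ratio of 2009 over 2010 was 41.6 to 1268 (adjusted p = 0.000275 by edgeR). LOC_Os01g73770 fell as well, with 2 counts in 2010 against 494 in 2009 and a ratio interval of 111 to 3353 (adjusted p = 0.00118 by edgeR). Its levels in 2009 were uneven, at 87.7 and 62.5 CPM in plants 33 and 43 and from 1.07 to 13.1 in the other 4. The years did not overlap for either gene.

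LOC_Os03g07540 rose in 2010. Its levels that year were 6.53, 20.6 and 17.8 CPM for O. nivara plants 52, 80 and 133 and 8.84, 14.6 and 5.58 for O. rufipogon plants 95, 199 and 230, against 0 to 2.08 in the 6 plants of 2009. Its log2 difference was 3.44 (SE 0.61, adjusted p = 0.00202 by edgeR). LOC_Os05g51570 rose from 1.38 ± 2.55 to 12.3 ± 5.92 CPM (SD, n = 6), a log2 difference of 3.18 (SE 0.89, adjusted p = 0.0204 by edgeR). Here plant 47 of 2009, at 6.54 CPM, was above plant 230 of 2010, at 3.62, so the years overlapped.

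**Figure D5:**
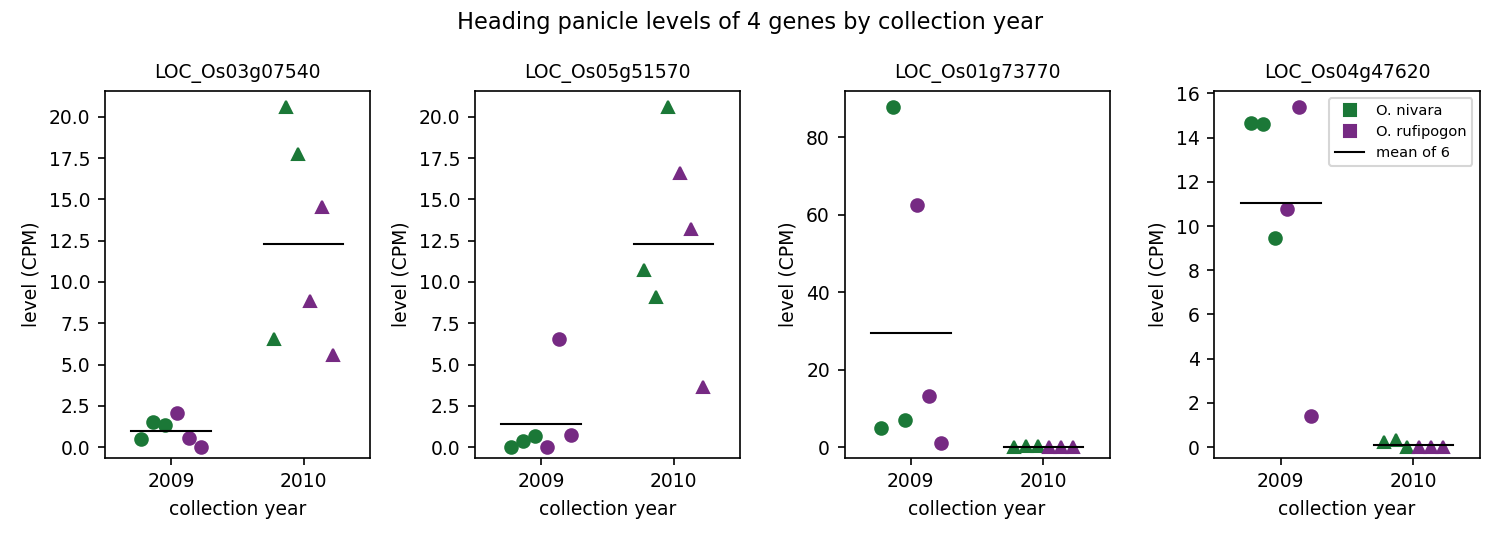
Heading panicle level (CPM) of 4 genes by collection year, 6 plants a year, coloured by species with a line at the mean. LOC_Os03g07540 and LOC_Os05g51570 were higher in 2010, and LOC_Os01g73770 and LOC_Os04g47620 had 2 counts each in the 6 libraries of 2010.

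The other called genes had log2 differences of 1.88 to 3.12 on the higher side and of -5.90 to -2.86 on the lower side. Genes lower in 2010 had means of up to 48.8 CPM in 2009. Without plant 199, 9 genes rose and 30 fell. Without O. nivara plant 52 the counts were 17 and 12, and without O. rufipogon plant 230 also 17 and 12. Shares over all genes are not given for these fits without single plants. The median log2 year difference of the 148 genes was -0.31, against -0.07 over all genes tested. It was -1.04 within O. nivara, with 33 of 136 genes called, or 24.3%, against 13.3% of all genes tested there. It was 0.65 within O. rufipogon, with 2 of 110 called, or 1.82%, against 2.45% of all genes tested. It was 0.32 without plant 52, 0.07 without plant 43, 0.01 without plant 133 and -1.47 without plant 199, so the direction of the set as a whole rested on single plants.

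Locus numbers of rice carry the chromosome and rise along it. By these numbers the 148 genes lay on all 12 chromosomes, with 26 on chromosome 1 and 3 on chromosome 6. As shares of the genes in the table they ran from 0.190% on chromosome 6 to 1.20% on chromosome 11, against 0.735% over the table. Within 100 locus numbers of each other were 9 pairs, made of 18 genes. Pearson's r of a pair's levels over the 12 heading panicles ran from 0.09 to 0.99 on the log2(CPM + 1) scale, with a median of 0.60. Neither the share of such pairs nor their r is given over all genes of the table. Whether the 148 genes cluster, or neighbours are more alike than other pairs, was not tested. The most alike were LOC_Os01g49640 and LOC_Os01g49650, with r = 0.99, and LOC_Os03g14130 and LOC_Os03g14140, equally close by number, had r = 0.60. LOC_Os01g49650 was at 506 CPM in plant 199, 151 in plant 33 and 135 in plant 39, and LOC_Os01g49640 at 22.7, 10.5 and 12.2 in the same plants. Similar neighbours can share tags, and the deposited counts do not show how such tags were assigned.

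At the edges of the selection the values changed little. The last 3 genes inside had a smaller heading mean of 3.98, 3.95 and 3.93 CPM on the deposited scale, and the first 3 outside had 3.87, 3.76 and 3.68. Closest to the ceiling of 2 CPM in the other organs, the 3 genes inside had a highest mean of 1.98, 1.98 and 2.00, and the 3 outside of 2.07. The selection repeated without each heading library in turn, a check chosen after seeing the data, kept between 136 and 146 of the 148 genes. The fewest were kept without plant 199.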

How the data were processed

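DGE tag counts per gene were deposited for 20134 genes, and again as CPM, tags scaled to a library total and not to gene length. Deposited CPM times that total gave the deposited counts within 2.04e-10. RNA-seq values were deposited by the authors as RPKM, and since no totals come with them their depth is unknown. Per the submitters' processing notes BWA and edgeR 3.6.8 were used, with no role stated. For build and annotation, the sources used here give nothing. The genes, marker lists and tests were chosen with earlier results of these data known.

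Group means of deposited CPM selected the genes, and levels in the text are CPM with TMM factors over 36 libraries. Tests used the counts of 12 heading panicles in edgeR 4.0.16 under R 4.3.3, by its quasi-likelihood F test. They used TMM factors, the filterByExpr filter and Benjamini-Hochberg adjustment over all genes tested. The species test was also run on simulated counts with a common spread for all genes, which does not cover genes as variable as these 148. DESeq2 1.42.0 was an alternative. Named genes were the first 10 by rank, the extremes in spread, in RNA-seq and at the thresholds, and called genes by size, limited here to 2 in each direction. LOC_Os01g45730, LOC_Os05g10210, LOC_Os11g47350, LOC_Os03g59290, LOC_Os03g14130, LOC_Os03g14140, LOC_Os08g31870, LOC_Os01g49640 and LOC_Os01g49650 were named after their values were seen. Counting intervals are exact binomial at 95% and cover counting error only, since PCR copies are not independent molecules. Within heading groups, r between libraries over all genes of the table ran from 0.518 to 0.884 on the log2 scale. No library was therefore a copy of another, and libraries of a group also differed in genes outside the 148.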

Additional observations from a re-analysis of the deposited data

Results flagged for a closer look

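Among 26 groups of 6 plants examined, 10 had a plant far from the others. These groups were the summed level in 6 groups, and the first 10 genes by rank in both heading groups. The 5% that chance would flag holds for normally distributed values. It cannot be set against this count, because heading values ranked the genes and their CPM are skewed. The summed level of O. nivara plant 52, 317 CPM, lay far below the other 5 heading panicles of its species. That of O. rufipogon plant 199, 28080 CPM, lay far above. For 8 of the first 10 genes plant 199 was the distant one. It held 10798 CPM of LOC_Os08g43290, 2814 of LOC_Os07g46210, 1789 of LOC_Os09g35700 and 829 of LOC_Os04g44600. It also held 1521 CPM of LOC_Os01g02190, 1335 of LOC_Os01g56530, 728 of LOC_Os12g13930 and 626 of LOC_Os04g48400. These 8 flags come from 1 library and are not independent.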

How the results depend on the processing

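No gene was called between the species by edgeR in the main model, with RLE size factors, without a filter, without a year term, within the plants of 2010, among the first 100 genes or with the left-out loci removed first. DESeq2 called 2, all 36 libraries in 1 model 1, the plants of 2009 alone 2, and a ceiling of 1 CPM, which replaces part of the set, 2 of 90. Leaving out single plants gave 0 to 1, with 1 without plant 52 and 1 without plant 199. The interaction gave 0 calls in the main model, 4 by DESeq2 and 0 to 2 without single plants, with 2 without plant 230. The year difference gave 26 calls, and 19 to 39 without single plants. Among alternatives, 12 of 90 genes were called with a ceiling of 1 CPM, 15 among the first 100, and 2 of 110 within O. rufipogon alone, against 33 of 136 within O. nivara alone. The cause was not tested. DESeq2 called 39, of which 24 were among the 26, and all 36 libraries in 1 model 37, of which 25 were. Shares over all genes are given only for the main model and for fits within 1 species or year. Counts from the other fits therefore have no background here. For the 20 genes the naming rule gives for year, no sign changed with RLE factors, no filter, DESeq2, all 36 libraries or single plants left out. Of their calls, 2 of 80 were lost among the first 4 alternatives, both with DESeq2, and 21 of 240 without single plants. The share of genes over 2 RPKM outside heading panicles, 11.6%, was 23.1% at 1 RPKM and 2.04% at 5 RPKM by construction. No paired analysis was possible because the species and the years compared share no plant number, and the organs were not tested. Depth limits values near 1 CPM, which are only a few counts in a library.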
